A study of Arabidopsis thaliana with 12 samples.

Results

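The 6 AP2-like transcription factor genes that carry a site for the microRNA miR172 were followed in a dcl1 mutant and in wild type (WT) Arabidopsis thaliana. They are APETALA2 (AP2, AT4G36920), TARGET OF EARLY ACTIVATION TAGGED 1, 2 and 3 (TOE1, AT2G28550; TOE2, AT5G60120; TOE3, AT5G67180), SCHLAFMUTZE (SMZ, AT3G54990) and SCHNARCHZAPFEN (SNZ, AT2G39250). They were chosen by locus and make up 6 of the 24730 genes in the expression table. All 6 were among the 17925 genes that passed the filter on low values, which asked that FPKM average 1 or more across input libraries. FPKM are fragment numbers corrected for transcript length and for library size, so levels can be set side by side between genes.

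The mutant group was the dcl1 mutant in the Col-0 ecotype, and the control group was Col-0 WT. Plants of both genotypes were 20 days old and received no treatment. The labels give leaf as the tissue, while the protocol speaks of seedlings, and they do not name the dcl1 allele. Poly(A) RNA was sequenced directly (input, RNA-seq) and after immunoprecipitation with an antibody against N6-methyladenosine (m6A), with 3 biological replicates per genotype and fraction, 12 libraries in all. Only the 6 input libraries have expression values per library here.

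AP2-like proteins have a pair of AP2 DNA-binding domains and act mostly as repressors of transcription. AP2 specifies sepals and petals and limits AGAMOUS in the flower, while TOE1, TOE2, TOE3, SMZ and SNZ delay flowering, in part by repressing FT, the gene of the leaf-made flowering signal. The microRNA miR172 pairs with a site in the coding region of their messenger RNAs and acts both by cleaving them and by blocking their translation. DCL1 is the Dicer-like enzyme that cuts miR172 and most other microRNAs out of their primary transcripts. The proteins and the mature microRNA were not measured here.

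FPKM do not give the sequencing depth, which is therefore unknown. The FPKM of all genes summed to between 616106 and 621297 in dcl1 and between 620172 and 622995 in WT. DCL1 itself averaged 0.547 ± 0.124 FPKM in dcl1 and 5.20 ± 0.739 FPKM in WT (SD, n = 3 each). The leaf markers RBCS1A, RCA, CAB2, LHCB2.1, GLDP1 and CA1 summed to 26927 to 27792 FPKM in dcl1 and 29056 to 33995 FPKM in WT. Of these 6, RCA, LHCB2.1 and CA1 fell in limma and 0 rose (0 also at an unadjusted p-value below 0.05). Over all tested genes 12.8% fell. RCA alone fell after quantile normalization (adjusted p = 0.021), with no filter on low values (0.048) and without WT replicate 1 (0.039), whereas 5 of the 6 fell without WT replicate 3. The meristem markers STM, KNAT1, WUS and CLV3 summed to 36.8 to 38.3 FPKM in dcl1 and 28.8 to 36.3 FPKM in WT, with WUS and CLV3 under 0.3 FPKM in every library. STM rose by 0.34 on the log2 scale (limma adjusted p = 0.049). Quantile normalization (0.079) or omission of any library except WT replicate 3 (0.067 to 0.12) ended that call. So did a pseudocount of 0.1 FPKM (0.051), no filter on low values (0.071) and the replicate number as a block (0.062). STM still passed with a pseudocount of 5 FPKM (0.047), a minimum of 5 FPKM (0.046) and median-ratio scaling (0.041). The part of these markers in the changes of the AP2-like genes was not tested. Of 6 root markers, 5 were listed, and they summed to 0.316 to 0.739 FPKM in dcl1 and 0.317 to 0.571 FPKM in WT. Of 6 seed markers, 5 were listed, with sums of 0.131 to 0.663 FPKM in dcl1 and 0.0853 to 0.153 FPKM in WT. In bulk tissue, fewer cells of a type and less RNA per cell cannot be told apart.

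The question was how transcripts that miR172 can pair with differ in level when microRNA processing is impaired. The 6 genes did not move together. In dcl1, SNZ and SMZ fell, TOE2 rose, and AP2, TOE1 and TOE3 did not pass the test. Thus 3 of 6 genes passed limma's test at an adjusted p-value below 0.05, where 30.6% of all tested genes passed. The genotypes did not overlap in the same 3 genes, which held for 48.4% of all tested genes. With 6 genes, neither share sets the family apart from other genes. Over all tested genes 17.8% rose and 12.8% fell, so rises were 58.2% of the calls. After quantile normalization of the libraries rises were 40.0% of the calls, and the directions of SNZ, SMZ and TOE2 were kept. The median log2 change was -0.059 over the 6 genes and 0.032 over all tested genes.

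**Figure D1:**
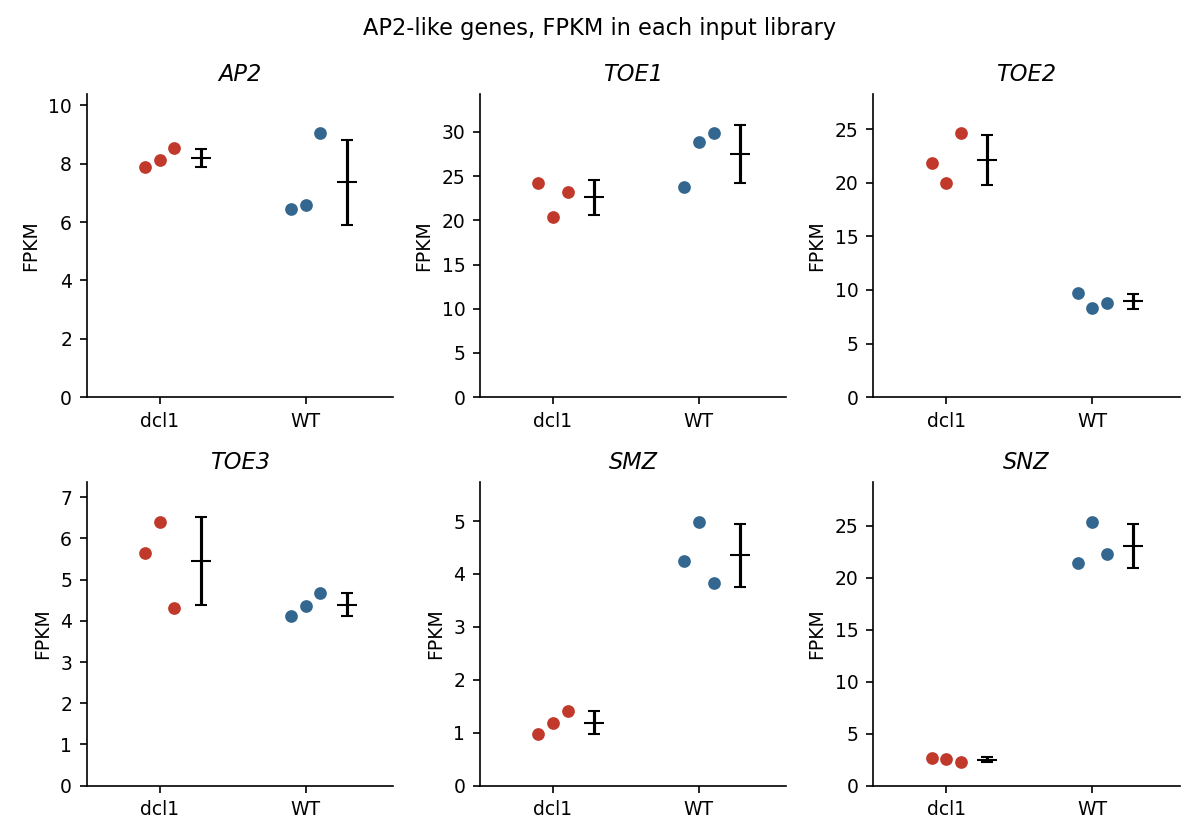
FPKM of the 6 AP2-like genes in each input library (points; dcl1 left, WT right), with the mean and SD of 3 libraries beside them (bars). SNZ and SMZ lie far lower in all dcl1 libraries, TOE2 lies higher in all dcl1 libraries, and the libraries of the genotypes overlap for AP2, TOE1 and TOE3.

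SNZ, a repressor of flowering, lies on chromosome 2 (16388886 to 16391073, minus strand, TAIR10). Its level was 2.70, 2.56 and 2.26 FPKM in dcl1 replicates 1, 2 and 3, against 21.4, 25.4 and 22.3 FPKM in WT replicates 1, 2 and 3. The highest dcl1 library was thus far below the lowest WT library. The means were 2.51 ± 0.228 FPKM in dcl1 and 23.0 ± 2.09 FPKM in WT (SD, n = 3 each), 9.19-fold lower in dcl1. On the log2(FPKM + 1) scale the change was -2.78 (SE 0.093, adjusted p = 1.0e-05), the size ranked 4 among the 2291 genes that fell. In the authors' deposited table its q-value was 1.8e-90.

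SMZ, the closest relative of SNZ and likewise a repressor of flowering, lies on chromosome 3 (20373718 to 20376522, minus strand). It had 0.977, 1.18 and 1.42 FPKM in dcl1 replicates 1, 2 and 3, against 4.24, 4.99 and 3.82 FPKM in WT replicates 1, 2 and 3. All dcl1 libraries were below all WT libraries, but the gene was low in both genotypes. The means were 1.19 ± 0.222 FPKM in dcl1 and 4.35 ± 0.592 FPKM in WT (SD, n = 3 each), 3.65-fold lower in dcl1. The log2 change was -1.29 (SE 0.12, adjusted p = 5.6e-04), ranked 113 among the genes that fell. Because the level is near the pseudocount of 1 FPKM, the log2 change depended on it, and was -1.79 with 0.1 FPKM and -0.59 with 5 FPKM. The authors' deposited table, which used no pseudocount, gives a log2 change of -1.87 (q-value 6.4e-11).

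TOE2, which represses flowering together with TOE1, lies on chromosome 5 (24207689 to 24211743, plus strand) and was the single gene of the 6 that rose. Its level was 21.8, 20.0 and 24.6 FPKM in dcl1 replicates 1, 2 and 3, against 9.68, 8.32 and 8.81 FPKM in WT replicates 1, 2 and 3. Every dcl1 library was above every WT library. The means were 22.2 ± 2.33 FPKM in dcl1 and 8.94 ± 0.690 FPKM in WT (SD, n = 3 each), 2.48-fold higher in dcl1. The log2 change was 1.22 (SE 0.096, adjusted p = 2.7e-04), ranked 552 among the 3189 genes that rose. The authors' deposited table gives TOE2 a q-value of 3.4e-21. That table marked TOE2, SMZ and SNZ as significant and the other 3 genes as not, and marked 6.75% of all 24730 genes.

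TOE1, a flowering repressor that also acts in defence and jasmonate signalling, lies on chromosome 2 (12225842 to 12228543, minus strand). It had 24.2, 20.4 and 23.2 FPKM in dcl1 replicates 1, 2 and 3, against 23.8, 28.8 and 29.9 FPKM in WT replicates 1, 2 and 3. The dcl1 libraries overlapped with WT replicate 1 alone. The means were 22.6 ± 1.97 FPKM in dcl1 and 27.5 ± 3.26 FPKM in WT (SD, n = 3 each). The log2 change was -0.27 (95% interval -0.52 to -0.019, adjusted p = 0.095). It passed without WT replicate 1 (-0.37, adjusted p = 0.049) and after quantile normalization (-0.36, adjusted p = 0.040), and its adjusted p lay between 0.040 and 0.24 over all alternatives. In the authors' deposited table its p-value was 0.020 and its q-value 0.065.

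AP2, the floral homeotic gene, lies on chromosome 4 (17400610 to 17403469, plus strand). Its level was 7.90, 8.15 and 8.54 FPKM in dcl1 replicates 1, 2 and 3, against 6.45, 6.60 and 9.05 FPKM in WT replicates 1, 2 and 3. The dcl1 libraries lay between WT replicate 3 and the other WT libraries. The means were 8.20 ± 0.324 FPKM in dcl1 and 7.37 ± 1.46 FPKM in WT (SD, n = 3 each), a log2 change of 0.15 (95% interval -0.14 to 0.44, adjusted p = 0.39). Without WT replicate 3 the change was 0.29 and passed (adjusted p = 0.034), so this library decided the call. Over all alternatives the adjusted p ran up to 0.76.

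TOE3, which like AP2 limits AGAMOUS in flowers, lies on chromosome 5 (26801949 to 26804249, minus strand). It had 5.65, 6.41 and 4.31 FPKM in dcl1 replicates 1, 2 and 3, against 4.12, 4.36 and 4.68 FPKM in WT replicates 1, 2 and 3. Only dcl1 replicate 3 lay within the WT range. The means were 5.46 ± 1.07 FPKM in dcl1 and 4.39 ± 0.281 FPKM in WT (SD, n = 3 each), a log2 change of 0.25 (95% interval -0.054 to 0.55, adjusted p = 0.18). Without dcl1 replicate 3 the change was 0.38 and passed (adjusted p = 0.042), and over all alternatives the adjusted p ran up to 0.45. TOE3 overlaps AT5G67170 on the other strand by 119 bases, and how shared reads were counted is not stated. AT5G67170 averaged 5.91 ± 0.227 FPKM in dcl1 and 4.89 ± 0.198 FPKM in WT (SD, n = 3 each; log2 0.23, limma adjusted p = 0.053). The other 5 genes overlap no gene in the table.

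**Figure D2:**
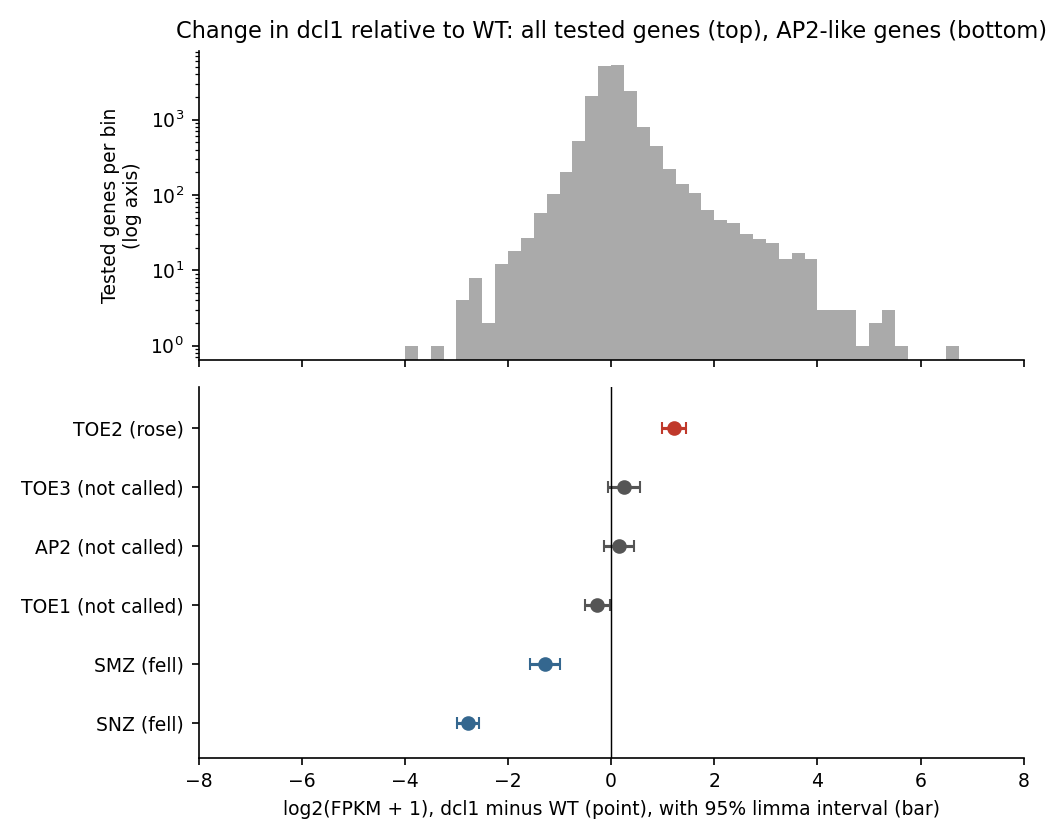
Change in dcl1 relative to WT on the log2(FPKM + 1) scale: all 17925 tested genes as a histogram with a log axis (top), and the 6 AP2-like genes with their 95% limma intervals (bottom). SNZ at -2.78 lies near the lower edge of all genes, TOE2 lies at 1.22, and the intervals of AP2 and TOE3 span 0.

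The contrast between members was then tested pair by pair, on the difference of log2(FPKM + 1) between 2 genes within each library. Of 15 pairs, 14 did not overlap between dcl1 and WT. Each of these had p = 0.10 in an exact two-sided permutation test, the smallest that 3 against 3 libraries allow, or 0.11 after Benjamini-Hochberg adjustment over the 15 pairs. An exact test on 3 against 3 libraries therefore cannot pass a threshold of 0.05. The 15 pairs share genes, and the share without overlap was not computed for pairs of other genes. The count of 14 therefore does not set the family apart. TOE2 and SNZ stood furthest apart: the gap of TOE2 over SNZ was 2.72 ± 0.224 in dcl1 and -1.27 ± 0.217 in WT (SD, n = 3 each), a difference in change of 3.99. AP2 and TOE3 were the pair that overlapped (difference in change -0.10, exact permutation p = 0.60).

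The ratio of levels is described for 2 of the 14 pairs without overlap, TOE1 over TOE2 and SNZ over SMZ. Both ratios were lower in every dcl1 library than in any WT library. The gap between AP2 and TOE3 overlapped between genotypes, as given above. TOE1 was at 1.11, 1.02 and 0.942 times the level of TOE2 in dcl1 replicates 1, 2 and 3, against 2.46, 3.46 and 3.39 times in WT replicates 1, 2 and 3. TOE1 thus stood near TOE2 in all dcl1 libraries and well above it in all WT libraries. TOE2 rose while TOE1 did not pass, and the gap between them had an exact permutation p of 0.10, or 0.11 adjusted. SNZ was at 2.77, 2.18 and 1.59 times the level of SMZ in dcl1, against 5.06, 5.09 and 5.83 times in WT. Both fell, and the log2 change of SMZ lay 1.49 above that of SNZ (exact permutation p = 0.10, the smallest possible, and 0.11 adjusted over the 15 pairs).

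The order of levels within the family differed between genotypes. In dcl1 the mean FPKM ran from TOE1 (22.6) and TOE2 (22.2) through AP2 (8.20) and TOE3 (5.46) to SNZ (2.51) and SMZ (1.19). TOE1 and TOE2 overlapped in dcl1, and all other neighbours in the order were separate. In WT it ran from TOE1 (27.5) and SNZ (23.0) through TOE2 (8.94) and AP2 (7.37) to TOE3 (4.39) and SMZ (4.35). The WT libraries of TOE1 and SNZ overlapped, as did those of TOE2 and AP2 and those of TOE3 and SMZ.

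Summed over the 6 genes, the level was 63.3, 58.7 and 64.4 FPKM in dcl1 replicates 1, 2 and 3, against 69.7, 78.5 and 78.5 FPKM in WT replicates 1, 2 and 3. The sum was lower in every dcl1 library than in any WT library. SNZ made up 4.05% ± 0.472 of it in dcl1 and 30.5% ± 2.01 in WT (SD, n = 3 each). TOE2 made up 35.6% ± 2.31 in dcl1 and 11.9% ± 1.75 in WT. The share of TOE1 was 36.4% ± 1.77 in dcl1 and 36.3% ± 2.00 in WT. AP2 had 13.2% ± 0.694 in dcl1 and 9.73% ± 1.61 in WT. A share depends on the levels of all 6 genes, so it does not give the change of a single gene. TOE1 averaged 22.6 FPKM in dcl1 and 27.5 FPKM in WT at near-equal shares, and the level of AP2 did not pass the test. These sums and shares describe the chosen genes and were not tested.

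**Figure D3:**
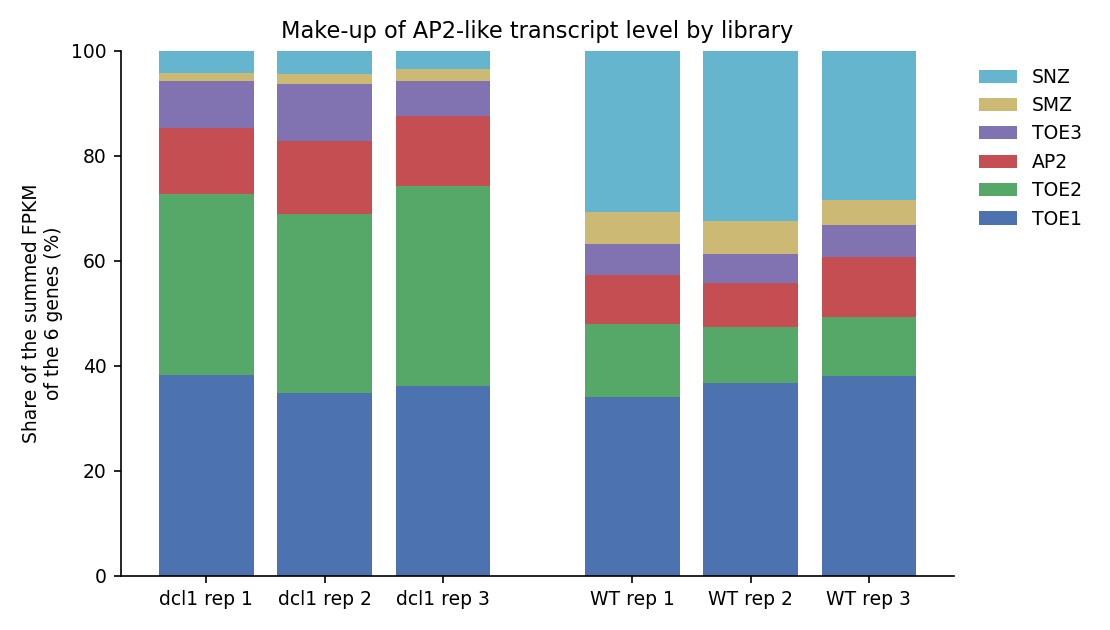
Share of each gene in the summed FPKM of the 6 AP2-like genes, one bar per input library (dcl1 left, WT right). The SNZ share is 3.51% to 4.36% in dcl1 libraries and 28.4% to 32.4% in WT libraries, the TOE2 share is larger in dcl1, and the TOE1 share is 34.1% to 38.3% over all libraries.

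Of the 5 loci that give rise to miR172, MIR172A and MIR172B passed the filter, and both rose. MIR172B (AT5G04275, chromosome 5, 1188211 to 1188299, minus strand) had 121, 89.5 and 86.4 FPKM in dcl1 replicates 1, 2 and 3, against 1.55, 1.22 and 1.50 FPKM in WT replicates 1, 2 and 3. MIR172A (AT2G28056, chromosome 2, 11941661 to 11943604, minus strand) had 5.67, 5.47 and 6.97 FPKM in dcl1, against 0.0983, 0.190 and 0.111 FPKM in WT, a log2 change of 2.63 (SE 0.11, adjusted p = 2.4e-05). All dcl1 libraries stood above all WT libraries at both loci. Input reads at these loci come from polyadenylated primary transcripts, not from mature miR172.

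The other loci were close to 0 in WT. MIR172D had 0.573, 1.73 and 3.56 FPKM in dcl1, against a listed 0, 0 and 0.113 FPKM in WT, and its mean over the 6 libraries lay just under the filter. MIR172E had 0.133, 0.138 and 0.142 FPKM in dcl1 and was listed at 0 in all WT libraries. MIR172C was listed at 0 in all libraries but dcl1 replicate 3 (0.752 FPKM). With no filter on low values 4 of the 5 loci rose in limma, where 3100 of 24730 genes rose. Since MIR172A passed the filter only through its dcl1 level, and the other 3 loci are close to 0 in WT, no share of the 5 loci is read as support for a rise. The annotated MIR172B locus is 89 bases long, against 1944 bases for MIR172A, and FPKM of a feature shorter than most fragments are imprecise. MIR172C, MIR172D and MIR172E are also short, at 133, 124 and 125 bases.

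**Figure D4:**
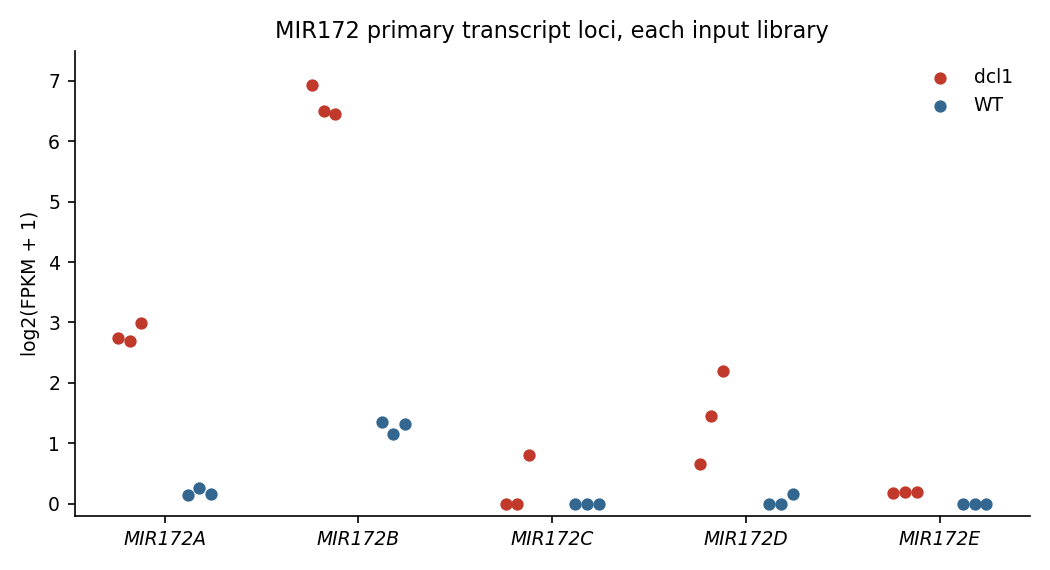
Level of the 5 MIR172 loci on the log2(FPKM + 1) scale in each input library (dcl1 left, WT right). The genotypes do not overlap for MIR172B, MIR172A, MIR172D and MIR172E. MIR172D is low and variable in dcl1, and MIR172C and MIR172E are near 0.

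Upstream of miR172 stand the SPL transcription factors, some of which activate MIR172B and which miR156 restrains. Of 8 MIR156 loci, 4 were listed and 2 tested: MIR156C rose to 19.4 ± 1.71 FPKM in dcl1, against 0.385 ± 0.169 FPKM in WT, and MIR156A to 6.11 ± 1.44 FPKM in dcl1, against 0.291 ± 0.348 FPKM in WT (SD, n = 3 each). Both reached the filter only through their dcl1 level. The annotated MIR156A locus is 82 bases long, against 2555 bases for MIR156C, so the FPKM of MIR156A are imprecise. Of 11 SPL genes with a miR156 site, 10 rose and 0 fell in limma (0 also at an unadjusted p-value below 0.05), with a median log2 change of 0.95, where 17.8% of all tested genes rose. SPL4 averaged 20.6 ± 2.30 FPKM in dcl1 and 6.58 ± 1.31 FPKM in WT (log2 1.52, adjusted p = 4.9e-04). SPL5 (log2 1.29) and the near-identical copies SPL13A (1.29) and SPL13B (1.29), whose reads cannot be assigned with certainty, followed. SPL9 and SPL15 are known activators of MIR172B: SPL9 averaged 18.9 ± 1.97 FPKM in dcl1 and 9.47 ± 1.50 FPKM in WT (adjusted p = 0.0020). SPL15 averaged 4.07 ± 0.579 FPKM in dcl1 and 3.53 ± 0.405 FPKM in WT and did not pass (adjusted p = 0.33). SPL9 and SPL15 were named with their values known. The count of 10 was 9 when any library but WT replicate 1 was left out, through SPL11 (adjusted p = 0.049 with all libraries and 0.080 to 0.13 in those cases). SPL11 was also lost, leaving 9, with no filter on low values (0.077), after quantile normalization (0.155) and after median-ratio scaling (0.078).

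Genes that act on flowering time moved in both directions. Of 17 listed, 13 were tested, of which 8 rose and 2 fell, with a median log2 change of 0.50, where 17.8% of all tested genes rose and 12.8% fell. Leaving out a library gave 7 rises and 0 falls (without WT replicate 1 or dcl1 replicate 1), 8 and 0 (without WT replicate 3), or 7 and 1 (without each other library). The largest rises were in TEM2 (log2 3.16), TEM1 (2.38), which repress FT, FLC (2.33), a repressor of flowering, and AP1 (0.81), which promotes floral fate. TEM2 had 64.1, 89.8 and 69.3 FPKM in dcl1 replicates 1, 2 and 3, against 5.24, 4.90 and 14.7 FPKM in WT replicates 1, 2 and 3. WT replicate 3 was the highest WT library for TEM2 and also for TEM1 (35.7, 53.9 and 35.6 FPKM in dcl1, against 5.71, 4.21 and 13.9 FPKM in WT). Without WT replicate 3 the log2 changes were 3.62 for TEM2 and 2.83 for TEM1.

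FT, SOC1 and FUL, on which AP2-like proteins are known to act, are given with their values known. FT had 0.0891 and 0.0496 FPKM in dcl1 replicates 1 and 2 and was listed at 0 in replicate 3, against 0.388, 0.127 and 0.277 FPKM in WT. At this level it was not tested. SOC1, which promotes flowering, rose to 39.7 ± 2.43 FPKM in dcl1, against 26.1 ± 3.55 FPKM in WT (log2 0.59, adjusted p = 0.0064). FUL, which promotes flowering and fruit growth, rose to 5.01 ± 0.730 FPKM in dcl1, against 2.63 ± 0.380 FPKM in WT (log2 0.73, adjusted p = 0.0057). TFL1 (log2 -0.71, adjusted p = 0.026), which keeps the shoot tip from flowering, and AGL24 (log2 -0.39, adjusted p = 0.041), which promotes flowering, fell. The TFL1 call was lost without WT replicate 1 (0.087) or 3 (0.060) or dcl1 replicate 1 (0.072) or 2 (0.075). For AGL24, leaving out each library in turn gave adjusted p of 0.060 to 0.11, except 0.018 without dcl1 replicate 2. The bZIP partner of FT, FD, which was named with its values known, rose by 0.50 on the log2 scale (adjusted p = 0.031), and that call was lost with any library but WT replicate 3 left out (0.052 to 0.084).

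Members of the AP2 family without a miR172 site were set beside the 6 genes. Of 11, 9 were listed and 7 tested, of which 3 rose and 0 fell in limma (1, WRI3, at an unadjusted p-value below 0.05), with a median log2 change of 0.30 and changes between -0.29 (WRI3) and 0.77 (WRI4). Over all tested genes 17.8% rose. WRI3 fell without WT replicate 3 (-0.35, adjusted p = 0.039) and after quantile normalization (-0.39, 0.033). ANT, which promotes organ growth, averaged 24.1 ± 0.886 FPKM in dcl1 and 16.5 ± 2.19 FPKM in WT (SD, n = 3 each; log2 0.53, adjusted p = 0.0078). WRI4, a regulator of wax and fatty acid synthesis (adjusted p = 0.034), and AIL6, which acts with ANT in flowers (log2 0.35, adjusted p = 0.040), also rose. The AIL6 call was lost with any 1 library left out (0.051 to 0.11), and the WRI4 call with any library but WT replicate 3 left out (0.068 to 0.11). The count of 3 was 1 without WT replicate 1 or 2 or dcl1 replicate 1 or 2, and also 1 with no filter on low values, and ANT passed in every case. SNZ, SMZ and TOE2 lay outside the range of these 7 genes, and a difference between the lists was not tested.

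**Figure D5:**
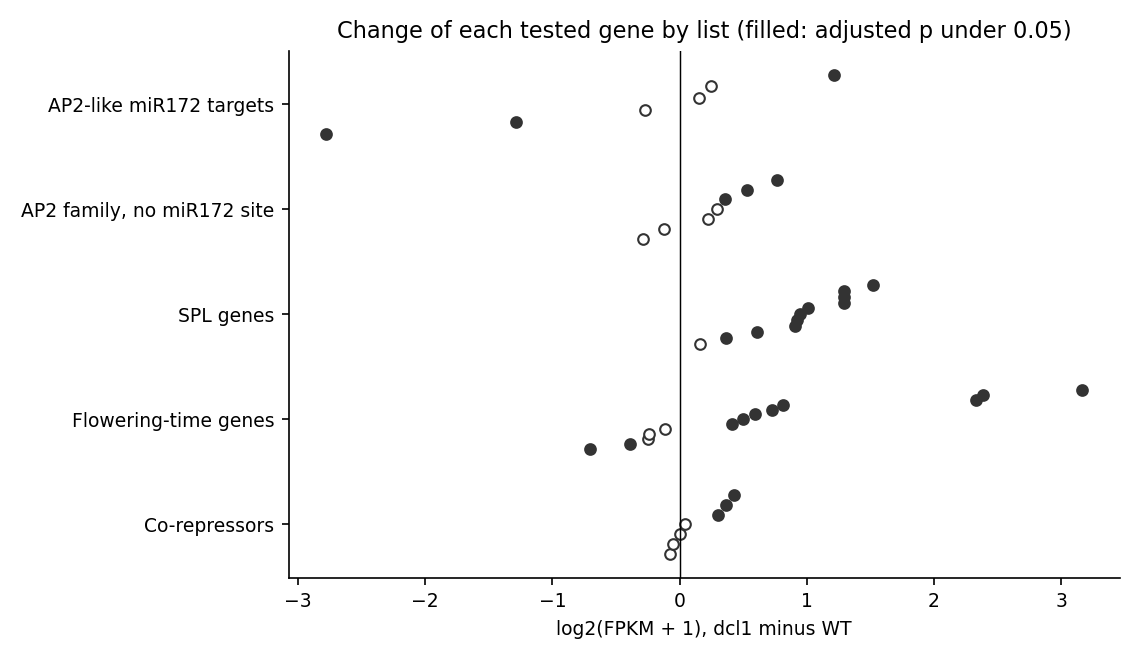
Change of each tested gene in dcl1 relative to WT on the log2(FPKM + 1) scale, by list; filled points passed an adjusted p-value of 0.05. The AP2-like miR172 targets run from -2.78 to 1.22, the AP2-family genes without the site from -0.29 to 0.77, and 10 of 11 SPL genes lie to the right as filled points.

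AP2-like repressors recruit TOPLESS (TPL), TPL-related proteins (TPR) and the histone deacetylase HDA19. Of 7 co-repressor genes tested, 3 rose and 0 fell in limma (0 also at an unadjusted p-value below 0.05), with a median log2 change of 0.041, where 17.8% of all tested genes rose. TPR1 averaged 13.6 ± 0.128 FPKM in dcl1 and 9.86 ± 0.997 FPKM in WT (log2 0.43, adjusted p = 0.0095). TPR3 (log2 0.36, adjusted p = 0.027) and TPL (log2 0.30, adjusted p = 0.031) followed. The TPR3 and TPL calls were lost when any library but WT replicate 3 was left out (0.059 to 0.10), which left TPR1 alone, 1 of 7.

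For the members other than TOE1, the 2 genes with the nearest pattern were found among 7951 tested genes with a symbol, as the Euclidean distance between mean-centred log2(FPKM + 1) values over the 6 libraries. Nearest to SNZ were XTH31 (distance 0.40) and XTH7 (0.42), enzymes that remodel cell wall xyloglucan. XTH31 averaged 11.0 FPKM in dcl1 and 70.4 FPKM in WT. Nearest to SMZ were PAL1 (0.28), which opens phenylpropanoid synthesis, and DiT1 (0.32), a dicarboxylate transporter. PAL1 averaged 17.1 FPKM in dcl1 and 43.6 FPKM in WT. Nearest to TOE2 were the MIR403 locus (0.18) and NF-YA8 (0.23), a CCAAT-box factor subunit targeted by miR169. NF-YA8 averaged 9.92 FPKM in dcl1 and 4.04 FPKM in WT. The genes nearest to AP2 (TCP8 and GPAT6) and TOE3 (PSY and ATJ1) had distances between 0.098 and 0.13 and did not pass the test of dcl1 against WT. Since the nearest genes were chosen on the same 6 libraries, a change like that of the member follows from the choice.

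The m6A fraction was described from the authors' deposited table of 3117 differential peaks, 1879 higher and 1238 lower in dcl1. Of the 6 genes, TOE1 alone had a peak there, which is 16.7% of them, where 13.9% of all tested genes had at least 1. The TOE1 peak lies on chromosome 2 from 12226049 to 12226199 (TAIR10, 151 bases), in the 3' UTR by the authors' annotation, 207 to 357 bases from the end of the annotated gene. It was higher in dcl1, with a log2 change of 0.45 and a p-value of 2.8e-04 in the authors' deposited table, which corresponds to an FDR of 0.0023. The median log2 change of the peaks higher in dcl1 was 0.29, and 78.1% of them had a smaller change than TOE1. The median width of all 3117 peaks was 418 bases, against 151 bases for the TOE1 peak. The table holds no peak with a p-value above 0.049, so the absence of SNZ, SMZ, TOE2, AP2 and TOE3 from it says nothing about whether they carry m6A. How the change was scaled, and whether it was set against input, is not stated, and the part of the TOE1 transcript level in it (22.6 FPKM in dcl1 and 27.5 FPKM in WT on average) was not tested. Of the genes in the other lists, SEP3 (0.90), a floral organ co-factor, STM (0.24) and SAP18 (0.17), a co-repressor subunit, had higher peaks and SPL6 (-0.70) and SPL10 (-0.22) lower ones in the authors' deposited table.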

How the data were processed

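The authors deposited FPKM of the 6 input libraries. The tools in the submitters' processing notes are, without versions or roles, ChIPseeker, edgeR, fastp, HISAT2, HOMER and StringTie, and the build is TAIR10. The authors' deposited comparison gives a ratio of mean FPKM (dcl1 over WT), the log2 of that ratio, and p-value and q-value columns, per the file headers. A gene is marked significant there where the p-value column (not adjusted) is below 0.05 and the fold is 2 or more in either direction. This rule, tried on the table, gave the same 1669 genes. The deposited peak table gives a log2 change, a p-value and a score (log10 of the FDR) for each peak, per the file headers. Single immunoprecipitate libraries are not analysed here.

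Levels were compared by limma 3.58.1 (R 4.3.3; two-sided, variance trend) on log2(FPKM + 1) over the 17925 genes whose FPKM averaged 1 or more, with Benjamini-Hochberg adjustment. The pseudocount makes changes of low genes smaller. The fit was tested on simulated data. Pairs of genes were compared by exact permutation (scipy 1.17.1). Replicates are biological per the series design. The 6 genes and the lists were chosen with earlier results of these data known. Named genes were the 6 genes, DCL1, the MIR172 loci, up to 4 rises and 4 falls of each other list, and the 2 nearest patterns of each gene, of which those of TOE1 are not reported here. Alternatives were other pseudocounts, filters and scalings, a replicate block, and leaving out each library. Symbols came from RefSeq TAIR10.1, for names alone.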

Additional observations from a re-analysis of the deposited data

How the results depend on the processing

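The falls of SNZ and SMZ and the rise of TOE2 kept their direction and passed under every alternative run, with log2 changes of -3.15 to -1.90 for SNZ, -1.79 to -0.59 for SMZ and 0.96 to 1.30 for TOE2; a minimum of 5 FPKM left SMZ and TOE3 untested. The ends of these ranges came from pseudocounts of 0.1 and 5 FPKM. With 1 library left out at a time, the number of changed genes ran from 3205 (without WT replicate 2) and 3226 (without WT replicate 1) to 5663 (without WT replicate 3), against 5480 with all libraries. In the same runs the log2 change lay between -2.82 and -2.71 for SNZ, -1.36 and -1.20 for SMZ, 1.14 and 1.29 for TOE2, -0.37 and -0.20 for TOE1, 0.073 and 0.29 for AP2 and 0.14 and 0.38 for TOE3. After quantile normalization TOE1 passed (-0.36, adjusted p = 0.040). The cause of these shifts was not tested. Whether replicate numbers pair the libraries was not settled. Deviations from the group means correlated at 0.085, 0.061 and 0.15 between libraries of the same number. Between libraries of different numbers the correlations ran from -0.17 to 0.12. Replicates 2 and 3 of dcl1 correlated best with the WT library of the same number, and dcl1 replicate 1 with WT replicate 2 (0.12). With the replicate number as a block 5138 genes changed, SNZ (adjusted p = 7.6e-05), SMZ (0.0018) and TOE2 (6.2e-04) passed, TOE1 (0.12), AP2 (0.31) and TOE3 (0.21) did not, and AGL24 (0.052) and TPL (0.051) were lost. Over the 33 called genes of the other lists, 365 of 417 repeats kept the call, 52 lost it and 0 reversed. Unknown depth limits what can be said of genes near 0, such as FT and 3 of the MIR172 loci.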

Other observations

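Floral organ identity genes, some of which AP2 acts on, were measurable in this tissue at low levels. Of 6, 4 were tested, of which AP3 and PI rose and SEP1 fell, where 30.6% of all tested genes passed in either direction. AP3 and PI, which specify petals and stamens, averaged 4.14 ± 1.21 and 4.84 ± 0.536 FPKM in dcl1 and 2.09 ± 0.334 and 3.04 ± 0.145 FPKM in WT (SD, n = 3 each; limma adjusted p = 0.019 and 0.0068). The AP3 call was lost without WT replicate 2 (0.071). SEP1, a floral organ co-factor, averaged 0.891 ± 0.136 FPKM in dcl1 and 3.03 ± 0.864 FPKM in WT (log2 -1.07, limma adjusted p = 0.0034). SEP1 passed the filter only through its WT level, so its fall is not read as support for a change of the list. AGAMOUS, which AP2 represses, had 0.830, 1.04 and 0.990 FPKM in dcl1 and 0.838, 0.352 and 0.783 FPKM in WT and was not tested. The 6 genes summed to 13.8 to 18.3 FPKM in dcl1 and 13.0 to 13.9 FPKM in WT.

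In the authors' deposited table MIR172D has a fold of 51.9 in dcl1 over WT with a p-value of 1, whereas MIR172A, with a fold of 45.4, has a p-value of 2.7e-59. MIR172D averaged 1.95 FPKM in dcl1 over a locus of 124 bases, and MIR172A 6.04 FPKM over 1944 bases. The reason for the p-value of MIR172D was not tested.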
